A study of Mus musculus with 24 samples.

Results

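The genes described are the enzymes and carriers that bring pyruvate and glutamate into the citrate cycle, turn the cycle, export citrate and malate for NADPH, and move the electrons of cytosolic NADH into mitochondria. They were chosen by name, as rows of the expression table whose NCBI Gene number maps to 40 listed mouse symbols, and were kept where they reached 1 RPKM in at least 4 libraries. RPKM is a read count divided by the gene's length and by the size of the library. All 40 symbols had a row among the 28059 genes of the table, and 39 passed among the 14342 genes that did. Pyruvate carboxylase, Pc, is listed under its older symbol Pcx (NCBI Gene 18563). The gene left out is the mitochondrial malic enzyme Me3, which reached 1 RPKM in 3 libraries only and is described on its own.

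Pancreatic β cells release insulin in proportion to the ATP they make from glucose, and they burn most of their pyruvate in mitochondria rather than turning it into lactate. Pyruvate enters the citrate cycle both through pyruvate dehydrogenase, which kinases switch off and phosphatases switch on, and through pyruvate carboxylase, an entry that adds to the pool of cycle intermediates (anaplerosis). The NADH made by glycolysis cannot cross the inner mitochondrial membrane, so the malate-aspartate shuttle and the glycerol phosphate shuttle carry its electrons across, and β cells are known for high activity of both.

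RNA was sequenced from hand-picked islets of mice aged 3 to 4 months on a mixed background. ETV1, ETV4 and ETV5, transcription factors of the ETS family, are known substrates of the ubiquitin ligase COP1, which has them degraded. All 22 libraries used came from mice with floxed Cop1 alleles, in 2 sets told apart by their sample numbers. In set 1, 4 libraries are labelled with Pdx1.CreERT2 and the alleles Cop1fl/fl and Etv1fl/fl, with Etv5fl/fl, and with Etv4ko/ko (below the Etv1/4/5-labelled libraries), 3 are labelled Cop1 fl/fl; Pdx1.CreERT2 (Cop1 deletion) and 3 are labelled Cop1 fl/fl without Cre (control-labelled). Set 2 holds 4 libraries labelled with Pdx1.CreERT2 and the alleles Cop1fl/fl, Etv4ko/+ and Etv5fl/fl (the Etv4/5-labelled libraries, with 1 Etv4 allele left and Etv1 not targeted), 4 Cop1 deletion and 4 control libraries. Pdx1.CreERT2 is a Cre recombinase that tamoxifen switches on, driven by the promoter of Pdx1, a gene of β cells and of some δ cells. Whole islets also hold cells in which this promoter is silent and cells of other lineages. The comparisons address how islet RNA differs once Cop1 is lost, and whether those differences persist when ETV factors are deleted too.

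Total RPKM lay between 569486 and 664207 in set 1 and between 524289 and 682560 in set 2. The libraries of set 1 were shallower, with relative depths down to 0.331 of the deepest library, against at least 0.758 in set 2. Insulin RNA made up 21% to 41.1% of the RPKM of a library. Cop1 RNA averaged 0.893, 1.04 and 1.44 RPKM in the Etv1/4/5-labelled, Cop1 deletion and control-labelled libraries of set 1, and 0.816, 0.875 and 1.64 RPKM in the Etv4/5-labelled, Cop1 deletion and control libraries of set 2. The labels are not borne out in every library. Esr1, whose reads can include the estrogen receptor part of CreERT2, was at 99.1 RPKM in control-labelled replicate 2 of set 1, and at 0.169 and 0.191 RPKM in the other control-labelled libraries of that set. Etv4 averaged 1.26 RPKM in the Etv1/4/5-labelled libraries, against 0.0646 RPKM in the Cop1 deletion libraries of set 1, although both Etv4 alleles are labelled knockout there. Etv1 (5.3 against 4.72 RPKM) and Etv5 (3.69 against 2.8 RPKM) were not lower on average either. In the Etv4/5-labelled and Cop1 deletion libraries of set 2, Etv4 averaged 0.911 and 0.947 RPKM and Etv5 1.56 and 2.14 RPKM, with overlap. A value for a whole gene cannot show whether an exon was deleted. Immune markers summed to 183 and 176 RPKM in Cop1 deletion replicates 2 and 3 of set 2, against 48.4 to 95.8 RPKM in the controls of that set, and acinar markers varied widely (1110 to 4580 RPKM in the Etv4/5-labelled, 4390 to 24200 RPKM in the Cop1 deletion and 844 to 12700 RPKM in the control libraries of set 2). Xist was above 1 RPKM in replicates 2 and 4 of the Etv4/5-labelled libraries, in replicates 1 and 4 of the Cop1 deletion libraries and in all 4 controls of set 2, so that the Cop1 deletion libraries without Xist there are the same replicates 2 and 3 with the high immune sums. In set 1 it was above 1 RPKM in Etv1/4/5-labelled replicates 3 and 4, Cop1 deletion replicate 3 and control-labelled replicate 3. Counts below are also given without the libraries in doubt.

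The citrate cycle and shuttle genes spanned a wide range of levels, and the order was led by the malate dehydrogenases and fumarase. Mdh1, the cytosolic malate dehydrogenase, averaged 156 RPKM over the 22 libraries, Fh1 (fumarase) 132 RPKM and Mdh2, the mitochondrial malate dehydrogenase, 131 RPKM. These 3 ranges overlapped, and Fh1 differed most of the 3 between the sets, at 67.2 RPKM in set 1 and 185 RPKM in set 2. The citrate carrier Slc25a1 followed at 60.6 RPKM, then Idh3g (59.5 RPKM), Suclg1 (58.2 RPKM), Pdha1 (51.9 RPKM) and Idh2 (50.7 RPKM), neighbours whose ranges overlapped as well. Their order holds for the mean of all libraries only: in set 1 Idh3g (60.3 RPKM), Idh2 (53 RPKM) and Pdha1 (52.6 RPKM) stood above Slc25a1 (52.1 RPKM). At the low end stood the dicarboxylate carrier Slc25a10 (2.92 RPKM), the aspartate-glutamate carrier Slc25a13 (2.68 RPKM), the pyruvate carrier subunit Mpc1 (1.73 RPKM) and Me3 (0.772 RPKM). Each of the 39 genes that passed was at 1 RPKM or more in all 22 libraries, so the filter chose none of them through 1 group. Together the 40 genes summed to 1111 to 1216 RPKM in set 1 and 1381 to 1680 RPKM in set 2, or 0.175% to 0.297% of all RPKM. In set 2 the sum was 1518 ± 59 RPKM in Etv4/5-labelled, 1459 ± 53 RPKM in Cop1 deletion and 1607 ± 59 RPKM in control libraries (SD, n = 4 each), and in set 1 it was 1154 ± 17, 1112 ± 1.7 and 1177 ± 34 RPKM (SD, n = 4, 3 and 3) in the Etv1/4/5-labelled, Cop1 deletion and control-labelled libraries.

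**Figure D1:**
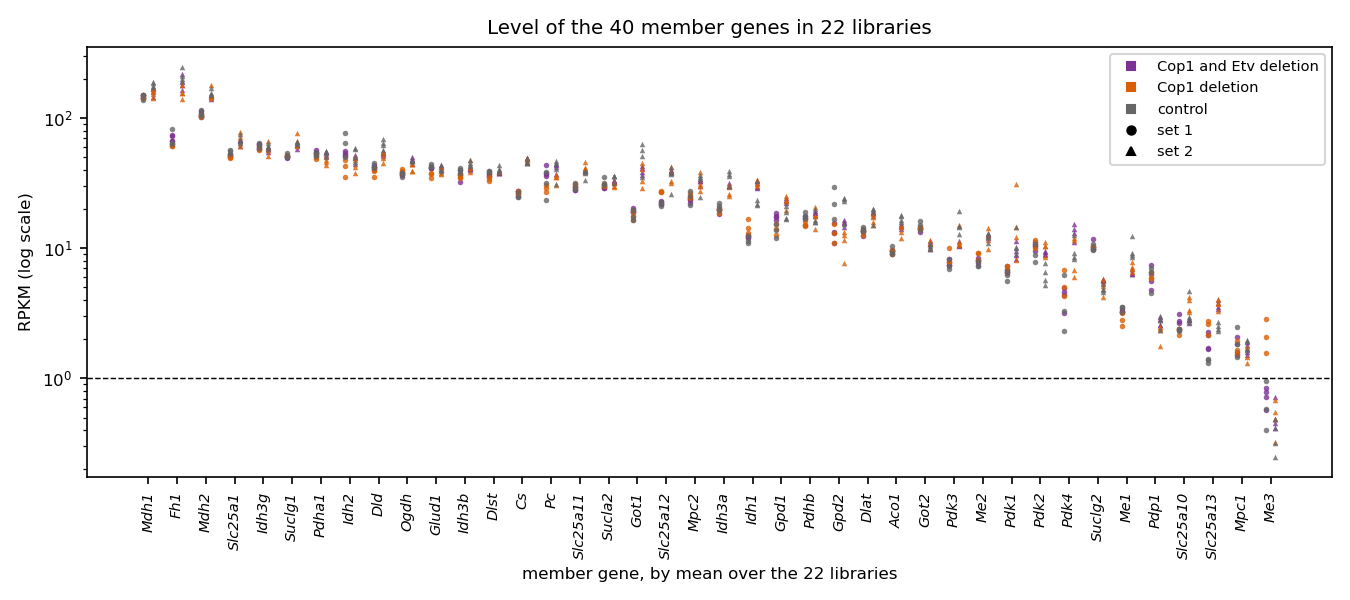
Levels of the 40 genes in RPKM on a log axis, 1 point per library and gene, genes ordered by their mean over the 22 libraries; the dashed line marks 1 RPKM. Mdh1, Fh1 and Mdh2 stand highest, and only Me3 lies below the line in most libraries.

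After Cop1 deletion more of these genes were called lower than higher in the mean and in each set, a split that depends on the scaling and the threshold in the cases given below. In the mean of both sets, 3 of 39 rose and 11 fell against control, that is 35.9% of the genes, where 20.1% of all 14342 genes tested (9.57% up, 10.5% down) and 21.3% of the 11685 genes at 1 RPKM or more in all libraries were called (adjusted p below 0.05, limma with Benjamini-Hochberg adjustment over all genes tested). The median log2 fold change was -0.09 over the 39 genes and -0.02 over all genes tested. The largest changes were a fall of Gpd2, the mitochondrial glycerol phosphate dehydrogenase, to 0.564 of control, and a rise of Slc25a13, an aspartate-glutamate carrier, to 1.51 times control. In set 2, 5 genes rose and 12 fell (43.6%, against 18.8% of all genes tested, 9.09% up and 9.75% down), and in set 1, 1 rose and 4 fell (12.8%, against 8.33%, 4.04% up and 4.29% down). The number of genes whose Cop1 deletion and control libraries did not overlap was 9 of 39 in set 2 (23.1%, against 16.1% of all genes) and 15 of 39 in set 1 (38.5%, against 29.9%). Gpd2 and Slc25a13 were called in the same direction in each set, which 3.88% of all genes tested were. The split depends on the scaling. With every library at equal total RPKM it was 4 up and 6 down in the mean, 2 up and 12 down in set 2 and 5 up and 1 down in set 1, where this scaling moved the median of all genes by 0.12. Leaving insulin genes out of that total gave 3 up and 16 down in the mean, 2 up and 20 down in set 2 and 1 up and 2 down in set 1, and moved the median of all genes in set 2 by -0.15. With a minimum of 1.5-fold added to the threshold, the split was even, 1 up and 1 down in the mean and in set 2.

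These counts depend on a few libraries. Without control-labelled replicate 2 of set 1, which carries Esr1 reads, 3 genes rose and 10 fell in the mean of both sets, and 1 rose and 3 fell in set 1. Leaving out Cop1 deletion replicates 2 and 3 of set 2, which have the high immune sums, gave 4 up and 11 down in the mean and 3 up and 6 down in set 2, in place of 5 and 12. Keeping only Xist-positive libraries in set 2, the mean gave 3 up and 10 down and set 2 gave 2 up and 4 down. Without control replicate 4 of set 2, the mean gave 4 up and 14 down, and set 1, which shares the estimate of spread, gave 3 up and 5 down. In set 2 alone, the count was 10 without control replicate 2 and 11 without control replicate 3. Set 1 gave 3 called genes without any 1 of Cop1 deletion replicates 2, 3 and 4 or without control-labelled replicate 3, and 2 (1 up, 1 down) without control-labelled replicate 1. β-cell markers moved with the same contrast: 6 of 10 fell and 1 rose in the mean of both sets, among them Slc2a2, the glucose transporter (log2 fold change -2.68, adjusted p = 1e-08), and Mafa, a β-cell transcription factor (-2.8, adjusted p = 9.5e-08). In bulk islets, fewer cells of a type and less RNA per cell cannot be told apart. Acinar, endothelial and stromal markers gave 0 calls in 12, 8 and 8 genes in that contrast by limma, with 1, 0 and 0 at an unadjusted p below 0.05. All genes of these lists were positive there, with median log2 fold changes of 0.96, 0.08 and 0.26. Markers of other cell types were called in that contrast: Sst of δ cells fell (-0.84, adjusted p = 0.00031), and Ppy of PP cells (1.33, adjusted p = 0.0016) and the duct marker Krt7 (0.80, adjusted p = 7.9e-06) rose. Of 9 immune markers C1qb rose in set 2 (0.87, adjusted p = 0.031). In the mean all 9 were positive (median log2 fold change 0.41), and 3 had an unadjusted p below 0.05. The part of these cell types in the metabolic changes was not tested.

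**Figure D2:**
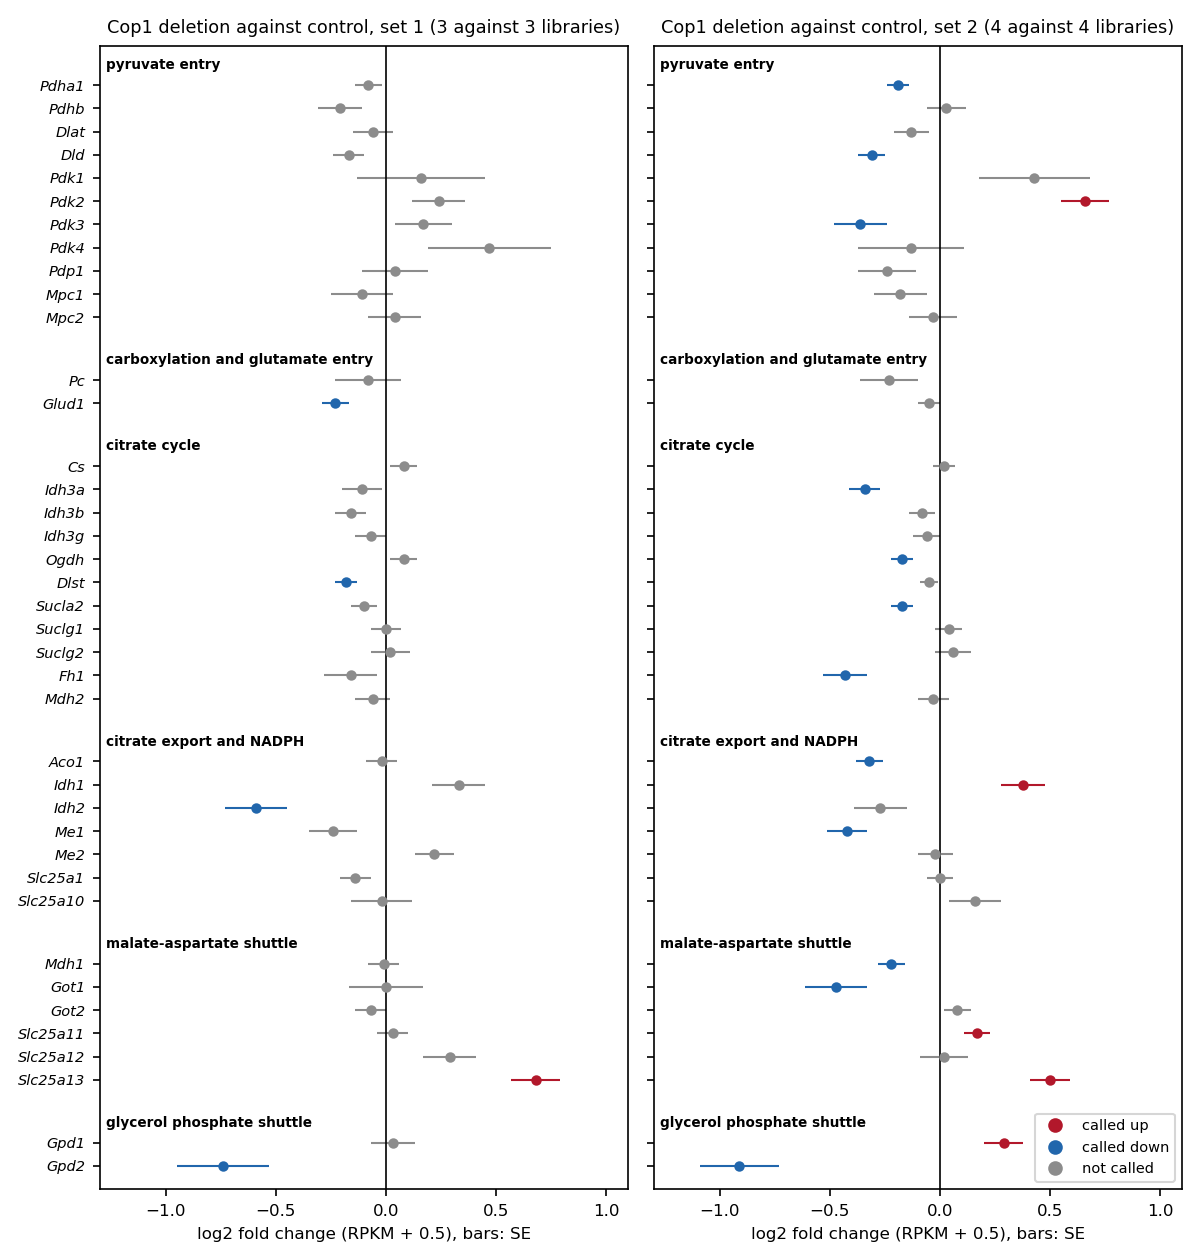
Log2 fold change of Cop1 deletion over control for the 39 genes tested, with its SE, grouped by role, for set 1 on the left (3 against 3 libraries) and set 2 on the right (4 against 4 libraries). Red points rose and blue points fell at an adjusted p below 0.05, and grey points were not called; Gpd2 lies farthest to the left in both sets.

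The promoters of the 4 genes named next, Gpd2 and Slc25a13 with the NADP-linked isocitrate dehydrogenases Idh2 and Idh1, are shown because one of each pair fell and the other rose, and they were chosen after their values were seen. The sequences are RefSeq windows of build GRCm38.p6, while the reads were mapped to another build (mm9), from 250 bases before to 50 bases after the annotated start. Capitals mark 3 searched motifs on either strand, the ETS core CGGAAG, the AP-1 site TGANTCA and the estrogen-related receptor element AAGGTCA. The window of the Gpd2 start shown (chr2:57238132-57238431, plus strand) holds 1 ETS core at -112, and a window of another Gpd2 start, chr2:57237428-57237727, holds none of the motifs. The Slc25a13 window (chr6:6217124-6217423, minus strand) holds no ETS core and 1 AP-1 site at -130. The Idh2 window (chr7:80115301-80115600, minus strand) holds 1 ETS core at -237, and the Idh1 window (chr1:65186430-65186729, minus strand) holds 2, at -194 and -94, while that of another Idh1 start holds 1. Positions count from the annotated start to the first base of the motif.
Gpd2: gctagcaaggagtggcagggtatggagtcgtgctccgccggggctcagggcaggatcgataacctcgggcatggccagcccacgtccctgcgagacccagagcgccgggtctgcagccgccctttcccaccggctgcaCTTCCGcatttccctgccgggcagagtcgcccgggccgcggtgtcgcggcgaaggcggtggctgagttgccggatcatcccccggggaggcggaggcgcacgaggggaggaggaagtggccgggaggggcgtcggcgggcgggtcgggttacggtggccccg
Slc25a13: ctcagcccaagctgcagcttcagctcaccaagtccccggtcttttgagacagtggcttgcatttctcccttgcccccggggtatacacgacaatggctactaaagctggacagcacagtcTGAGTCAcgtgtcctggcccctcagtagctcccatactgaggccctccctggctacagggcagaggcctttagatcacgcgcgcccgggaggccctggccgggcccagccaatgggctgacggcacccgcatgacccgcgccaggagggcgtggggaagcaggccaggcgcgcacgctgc
Idh2: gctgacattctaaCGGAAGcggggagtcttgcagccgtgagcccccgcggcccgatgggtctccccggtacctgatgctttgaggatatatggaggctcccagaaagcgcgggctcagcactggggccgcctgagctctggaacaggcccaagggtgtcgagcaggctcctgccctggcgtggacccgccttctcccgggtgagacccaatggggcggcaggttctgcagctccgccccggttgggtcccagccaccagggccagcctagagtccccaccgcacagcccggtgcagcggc
Idh1: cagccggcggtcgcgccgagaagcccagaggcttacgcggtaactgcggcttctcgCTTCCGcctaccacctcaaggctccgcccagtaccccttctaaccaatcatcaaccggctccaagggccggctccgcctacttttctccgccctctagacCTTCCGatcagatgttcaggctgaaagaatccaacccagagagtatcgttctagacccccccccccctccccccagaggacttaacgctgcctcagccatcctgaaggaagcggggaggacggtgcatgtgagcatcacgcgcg
Windows were found for 36 of the 40 genes, 48 in all, and 18 of these (37.5%), from 15 genes, hold the ETS core. It stands in 16.9% of the 32851 windows of all genes and in 29.3% of the 13167 windows of genes tested here. AP-1 sites stand in 6.25% of the 48 windows and in 5.24% of those of genes tested, and the receptor element in 4.17% and 3.04%. The ETS core is thus present in genes that fell (Gpd2, Idh2) and in one that rose (Idh1), and a match of letters is not a binding site.

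Among the 11 genes of pyruvate entry, 1 rose and 2 fell in the mean of both sets, and 1 rose and 3 fell in set 2. With groups this small, the counts by role are a description beside the 20.1% of all genes called in the mean and 18.8% in set 2. Pdk2, which rose, encodes a kinase that phosphorylates and inactivates pyruvate dehydrogenase. Its level was 9.06, 9.34, 9.42 and 8.86 RPKM in the Etv4/5-labelled, 8.59, 10.4, 11.2 and 10.4 RPKM in the Cop1 deletion and 7.69, 5.73, 6.51 and 5.17 RPKM in the control libraries of set 2. In set 1 it was 10.4, 9.49, 10.3 and 11.1 RPKM in the Etv1/4/5-labelled, 11.6, 10.7 and 10.1 RPKM in the Cop1 deletion and 8.8, 7.86 and 10.7 RPKM in the control-labelled libraries. All Cop1 deletion libraries of set 2 lay above all controls, while the groups overlapped in set 1. The log2 fold change of Pdk2 was 0.45 ± 0.08 in the mean (SE, adjusted p = 0.00049), 0.66 in set 2 (adjusted p = 0.00026) and 0.24 in set 1 (adjusted p = 0.28).

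Of the pyruvate dehydrogenase complex itself, Dld and Pdha1 fell. Dld, the dihydrolipoamide dehydrogenase that this complex shares with the α-ketoglutarate dehydrogenase complex, was at 52.6, 54.5, 51.2 and 54.2 RPKM in the Etv4/5-labelled, 55.3, 45, 48.9 and 52.8 RPKM in the Cop1 deletion and 63.9, 68.6, 61.5 and 57.1 RPKM in the control libraries of set 2. The set 1 values were 41.7, 42, 43.2 and 40.6 RPKM in the Etv1/4/5-labelled, 39.6, 39 and 35.3 RPKM in the Cop1 deletion and 41.2, 45.1 and 41.8 RPKM in the control-labelled libraries. No Cop1 deletion library reached a control of its set. Dld fell by 0.24 on the log2 scale in the mean (SE 0.05, adjusted p = 0.0015). Pdha1, the X-linked catalytic subunit, was at 51.1, 54.7, 52.7 and 55.6 RPKM in the Etv4/5-labelled, 47.9, 43.3, 45.6 and 51.3 RPKM in the Cop1 deletion and 54.5, 54.9, 54.5 and 50.1 RPKM in the control libraries of set 2. Set 1 had 54.8, 53.3, 56.5 and 53.2 RPKM of Pdha1 in the Etv1/4/5-labelled, 48.7, 51.1 and 49.9 RPKM in the Cop1 deletion and 50.9, 52.7 and 55 RPKM in the control-labelled libraries. Its fall of 0.13 (SE 0.04, adjusted p = 0.021) was lost, at an adjusted p of 0.075, when set 2 held only Xist-positive libraries, and without Cop1 deletion replicate 2 (adjusted p = 0.054) or control-labelled replicate 3 (0.056) of set 1. Cop1 deletion overlapped control in each set. Pdhb and Dlat, the other subunits, and the pyruvate carrier genes Mpc1 and Mpc2 were not called.

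Of the other kinases, Pdk3 was called and Pdk1 and Pdk4 were not. Pdk3, which is X-linked, fell in set 2 (11.9 RPKM in Cop1 deletion, 15.3 RPKM in control, log2 fold change -0.36, adjusted p = 0.039), where the groups overlapped and leaving out any 1 of Cop1 deletion replicates 1, 2 and 4 or control replicates 1, 2 and 4 lost the call (adjusted p = 0.066, 0.1, 0.087, 0.059, 0.064 and 0.11). Pdk1 reached 31.3 RPKM in Cop1 deletion replicate 3 of set 2, against 8.14 to 14.6 RPKM in the other libraries of that group, and was not called (0.43, adjusted p = 0.23). Pdk4 averaged 9.08 RPKM in Cop1 deletion and 9.7 RPKM in control libraries of set 2, and 5.37 and 3.94 RPKM in the same groups of set 1, without a call. The phosphatase Pdp1, which reactivates the complex, was not called either.

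Entry by carboxylation and from glutamate is represented by Pc and Glud1, of which Glud1 fell. Glud1 encodes glutamate dehydrogenase, which makes α-ketoglutarate from glutamate. It was at 41.3, 42.3, 41.2 and 41.3 RPKM in the Etv1/4/5-labelled, 37, 38 and 34.5 RPKM in the Cop1 deletion and 44.1, 42.1 and 42.4 RPKM in the control-labelled libraries of set 1. In set 2 it was at 40.7, 43.8, 41.8 and 42.1 RPKM in the Etv4/5-labelled, 40, 37.7, 37.2 and 41.8 RPKM in the Cop1 deletion and 39, 39.9, 40 and 43.8 RPKM in the control libraries. The Cop1 deletion libraries were the lowest of set 1, with no overlap, and overlapped the controls in set 2. Its log2 fold change was -0.14 in the mean (SE 0.04, adjusted p = 0.01) and -0.23 in set 1 (adjusted p = 0.013). The set 1 call was lost without Cop1 deletion replicate 4 (adjusted p = 0.078) or control-labelled replicate 1 (0.066). Over all 35 alternatives it was lost in 4, and the Glud1 change ranged from -0.26 to -0.1 (adjusted p up to 0.57 by limma). The Glud1 call in the mean was lost in 1 of 34 alternatives (adjusted p = 0.24). Pc averaged 28.9 RPKM in Cop1 deletion and 31.1 RPKM in control-labelled libraries of set 1, and 34.3 and 40.7 RPKM in the same groups of set 2, and was not called in either set (adjusted p = 0.86 and 0.22).

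Within the citrate cycle, 4 of 11 genes fell in the mean of both sets and none rose, namely Fh1, Idh3a, Sucla2 and Dlst. Fh1 stood at 164, 188, 179 and 217 RPKM in the Etv4/5-labelled, 178, 156, 139 and 154 RPKM in the Cop1 deletion and 209, 248, 198 and 192 RPKM in the control libraries of set 2. Set 1 had Fh1 at 72.6, 74.1, 66.7 and 66.4 RPKM in the Etv1/4/5-labelled, 62.6, 61 and 60.5 RPKM in the Cop1 deletion and 62.7, 81.7 and 63.6 RPKM in the control-labelled libraries. The Cop1 deletion libraries were below the controls in each set, in set 1 by a narrow margin. Fumarase RNA fell by 0.30 on the log2 scale in the mean (SE 0.08, adjusted p = 0.0093).

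Idh3a, the catalytic subunit of the NAD-linked isocitrate dehydrogenase, was at 30, 29.9, 29.8 and 31.7 RPKM in the Etv4/5-labelled, 29.7, 25.9, 25 and 30.5 RPKM in the Cop1 deletion and 37, 38.9, 35.6 and 30 RPKM in the control libraries of set 2. Idh3a in set 1 was at 19.7, 20.2, 18.2 and 19.6 RPKM in the Etv1/4/5-labelled, 18.6, 19.8 and 19.8 RPKM in the Cop1 deletion and 21, 19.6 and 22.3 RPKM in the control-labelled libraries. Most of its fall (-0.23, SE 0.06, adjusted p = 0.0084) lay in set 2 (-0.34, adjusted p = 0.0034), where control replicate 4 sat among the Cop1 deletion libraries. The other subunits, Idh3b and the X-linked Idh3g, were not called in any of the 8 comparisons. When set 2 held only Xist-positive libraries, the call on Idh3a was lost (adjusted p = 0.057).

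Sucla2, the ATP-linked subunit of succinyl-CoA ligase, was at 32.4, 32.8, 33 and 33.4 RPKM in the Etv4/5-labelled, 29.6, 31.8, 30.1 and 32 RPKM in the Cop1 deletion and 36, 36, 35.6 and 31.7 RPKM in the control libraries of set 2. Sucla2 in set 1 was at 28.8, 28.8, 29.6 and 30.6 RPKM in the Etv1/4/5-labelled, 29.9, 29.9 and 31.1 RPKM in the Cop1 deletion and 31.9, 30.6 and 34.9 RPKM in the control-labelled libraries. The change was small (-0.13, SE 0.04, adjusted p = 0.019), and the groups overlapped in both sets. Without control-labelled replicate 3 of set 1 its adjusted p was 0.06. The GTP-linked subunit Suclg2 and the shared subunit Suclg1 were not called.

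Dlst, the succinyltransferase of the α-ketoglutarate dehydrogenase complex, fell in the mean of both sets and in set 1. It was at 37, 37.9, 35.6 and 36 RPKM in the Etv1/4/5-labelled, 35.3, 34 and 32.7 RPKM in the Cop1 deletion and 38.8, 38.9 and 38.1 RPKM in the control-labelled libraries of set 1. In set 2 the values were 37.7, 37.9, 37.9 and 39.4 RPKM in the Etv4/5-labelled, 39.1, 38.5, 39.2 and 39.4 RPKM in the Cop1 deletion and 40.4, 38.6, 39.5 and 43.7 RPKM in the control libraries. Its log2 fold change was -0.12 in the mean (SE 0.03, adjusted p = 0.015) and -0.18 in set 1 (adjusted p = 0.025). The set 1 call was lost without Cop1 deletion replicate 3 (adjusted p = 0.078) or 4 (0.12), or control-labelled replicate 1 (0.081) or 2 (0.06). Over all 35 alternatives it was lost in 7, and the Dlst change ranged from -0.21 to -0.05 (adjusted p up to 0.8 by limma). The Dlst call in the mean was lost in 2 of 34 alternatives (adjusted p up to 0.36). Ogdh, the first subunit of that complex, fell in set 2 alone (41.8 RPKM in Cop1 deletion, 47 RPKM in control, -0.17, adjusted p = 0.024), with no overlap. That call was lost without Cop1 deletion replicate 2 (adjusted p = 0.056) or 3 (0.067), or control replicate 2 (0.053) or 3 (0.053). Cs (citrate synthase) and Mdh2 were not called. Reads of Dlst, Pdha1, Pc, Idh3b, Me1 and Slc25a11 could include reads of an overlapping gene of the table, since the sources used here do not say whether strand was used in counting.

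The 7 tested genes of citrate export and NADPH supply gave 1 rise and 3 falls in the mean of both sets. Idh2 fell. It is the mitochondrial NADP-linked isocitrate dehydrogenase, and it was at 51.2, 55.8, 52.2 and 53.8 RPKM in the Etv1/4/5-labelled, 34.9, 43 and 47.6 RPKM in the Cop1 deletion and 64.3, 50.1 and 77.2 RPKM in the control-labelled libraries of set 1. In set 2 it was at 44.6, 48.9, 52.1 and 50.3 RPKM in the Etv4/5-labelled, 41.9, 47.1, 37.5 and 50 RPKM in the Cop1 deletion and 59.1, 58, 50 and 45.6 RPKM in the control libraries. The groups did not overlap in set 1 and did in set 2. Idh2 changed by -0.43 in the mean (SE 0.09, adjusted p = 0.0026), by -0.59 in set 1 (adjusted p = 0.011) and by -0.27 in set 2 (adjusted p = 0.13). Without control-labelled replicate 2, which was the lowest of its group, the set 1 change was -0.76 (adjusted p = 0.0018). The set 1 call was lost without Cop1 deletion replicate 2 (adjusted p = 0.079) or control-labelled replicate 3 (0.07).

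The cytosolic counterpart moved the other way. Idh1 was at 28.7, 31.5, 29.6 and 32.6 RPKM in the Etv4/5-labelled, 31.1, 33.4, 30 and 33.6 RPKM in the Cop1 deletion and 23.3, 21.6, 21.8 and 32.8 RPKM in the control libraries of set 2. Set 1 had 12.2, 12.5, 12.6 and 11.9 RPKM of Idh1 in the Etv1/4/5-labelled, 13.1, 14.3 and 16.7 RPKM in the Cop1 deletion and 12.3, 11.3 and 10.9 RPKM in the control-labelled libraries. Control replicate 4 of set 2 lay with the Cop1 deletion libraries, and the other 3 controls of that set lay below all of them. The log2 fold change was 0.35 in the mean (SE 0.08, adjusted p = 0.0029), 0.38 in set 2 (adjusted p = 0.015, and 6.6e-05 without that control) and 0.33 in set 1 (adjusted p = 0.091). The set 2 call was lost without control replicate 2 (adjusted p = 0.057) or control replicate 3 (adjusted p = 0.052).

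Me1, the cytosolic malic enzyme that makes NADPH from malate, fell. Its level was 6.33, 6.92, 6.58 and 6.29 RPKM in the Etv4/5-labelled, 6.88, 7.8, 6.58 and 7.15 RPKM in the Cop1 deletion and 9.22, 8.53, 8.81 and 12.4 RPKM in the control libraries of set 2. Set 1 had 3.25, 3.3, 3.39 and 3.24 RPKM of Me1 in the Etv1/4/5-labelled, 2.54, 3.19 and 2.79 RPKM in the Cop1 deletion and 3.23, 3.52 and 3.52 RPKM in the control-labelled libraries. All Cop1 deletion libraries lay below the controls of their set. The change was -0.33 in the mean (SE 0.07, adjusted p = 0.0026), -0.42 in set 2 (adjusted p = 0.0038) and -0.24 in set 1 (adjusted p = 0.21).

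Aco1, the cytosolic aconitase that doubles as an iron-responsive RNA-binding protein, fell in set 2. There it was at 14, 14.8, 14.7 and 15.4 RPKM in the Etv4/5-labelled, 14.4, 12, 13.2 and 14.8 RPKM in the Cop1 deletion and 17.7, 18.1, 15.9 and 16.4 RPKM in the control libraries, with no overlap between the last 2 groups. In set 1 it was at 9.08, 9.58, 9.71 and 9.54 RPKM in the Etv1/4/5-labelled, 9.61, 9.01 and 9.57 RPKM in the Cop1 deletion and 8.96, 10.3 and 9.35 RPKM in the control-labelled libraries, which overlapped. The mean change was -0.17 (SE 0.05, adjusted p = 0.022), and the adjusted p was 0.064 without control-labelled replicate 2, 0.062 without Cop1 deletion replicate 3 of set 1 and 0.091 when set 2 held only Xist-positive libraries. The mitochondrial malic enzyme Me2 and the carriers Slc25a1 and Slc25a10, which exchange citrate and dicarboxylates for malate or phosphate, were not called after Cop1 deletion.

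Of the 6 genes of the malate-aspartate shuttle, 1 rose in the mean of both sets, and in set 2 2 rose and 2 fell. Slc25a13 encodes citrin, the calcium-stimulated aspartate-glutamate carrier that is the main form in liver, while its relative Slc25a12 (aralar) was the more abundant form in these islets. Slc25a13 was at 2.17, 1.71, 2.25 and 1.68 RPKM in the Etv1/4/5-labelled, 2.14, 2.77 and 2.6 RPKM in the Cop1 deletion and 1.3, 1.4 and 1.39 RPKM in the control-labelled libraries of set 1. In set 2 it was at 3.54, 3.8, 3.38 and 4.03 RPKM in the Etv4/5-labelled, 3.7, 3.31, 3.78 and 4.05 RPKM in the Cop1 deletion and 2.72, 2.4, 2.53 and 2.29 RPKM in the control libraries. Every library labelled with Cop1 deletion, with or without Etv deletion, lay above every control of its set. The log2 fold change of Slc25a13 was 0.59 in the mean (SE 0.07, adjusted p = 8.6e-06), 0.68 in set 1 (adjusted p = 0.00036) and 0.50 in set 2 (adjusted p = 0.0011), and these calls held under every other scaling, filter and pseudocount run and without any 1 library. The set 2 change is below 1.5-fold.

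The cytosolic enzymes Mdh1 and Got1 were called in set 2 and not in set 1. Mdh1 averaged 155 RPKM in Cop1 deletion and 181 RPKM in control libraries of set 2 (-0.22, adjusted p = 0.0097), with no overlap. Got1, the cytosolic aspartate aminotransferase, averaged 36.9 RPKM in Cop1 deletion and 51.4 RPKM in control libraries of set 2 (-0.47, adjusted p = 0.03), and control replicate 4, at 35.3 RPKM, overlapped the Cop1 deletion libraries. The Got1 call was lost without Cop1 deletion replicate 2 (adjusted p = 0.081) or 3 (0.086), or control replicate 1 (0.089), 2 (0.11) or 3 (0.06). The carrier Slc25a11, which exchanges malate for α-ketoglutarate, rose slightly in set 2 (42 RPKM in Cop1 deletion, 37.4 RPKM in control, 0.17, adjusted p = 0.047), a call lost under most of the left-out libraries (adjusted p = 0.13 without Cop1 deletion replicate 2). Slc25a12 averaged 26.9 RPKM in Cop1 deletion and 21.9 RPKM in control-labelled libraries of set 1 without overlap, yet was not called (0.29, adjusted p = 0.17), and Got2 was not called.

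The glycerol phosphate shuttle has 2 genes, and the mitochondrial one fell. Gpd2 oxidises glycerol phosphate on the outer face of the inner membrane and passes the electrons to ubiquinone. It was at 14.6, 16.3, 15.7 and 15.8 RPKM in the Etv4/5-labelled, 11.5, 7.62, 13.3 and 12.7 RPKM in the Cop1 deletion and 24.1, 24, 15.2 and 22.9 RPKM in the control libraries of set 2. In set 1 it was at 11, 13.2, 13 and 15.6 RPKM in the Etv1/4/5-labelled, 11, 13 and 15.2 RPKM in the Cop1 deletion and 21.7, 16.7 and 29.4 RPKM in the control-labelled libraries. Cop1 deletion and control did not overlap in either set. The log2 fold change was -0.83 in the mean (SE 0.14, adjusted p = 0.00027), -0.91 in set 2 (adjusted p = 0.0018) and -0.74 in set 1 (adjusted p = 0.033). The lowest control of each set was the one closest to Cop1 deletion, and without control-labelled replicate 2 the set 1 change was -0.94 (adjusted p = 0.012). The set 1 call was lost without Cop1 deletion replicate 2 (adjusted p = 0.15) or 3 (0.091), or control-labelled replicate 1 (0.084) or 3 (0.17).

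Gpd1, the cytosolic partner that uses NADH to make glycerol phosphate, did not fall with Gpd2. It was at 23.5, 22.9, 24.4 and 22.3 RPKM in the Etv4/5-labelled, 22.9, 25, 19.7 and 23.3 RPKM in the Cop1 deletion and 19, 17.1, 16.6 and 21.2 RPKM in the control libraries of set 2. Set 1 had 17.5, 17.4, 18.7 and 16.5 RPKM of Gpd1 in the Etv1/4/5-labelled, 12.6, 15.2 and 14 RPKM in the Cop1 deletion and 12, 13.7 and 15.2 RPKM in the control-labelled libraries. After Cop1 deletion it rose in set 2 (0.29, adjusted p = 0.025), where Cop1 deletion replicate 3 and control replicate 4 overlapped. That call was lost without Cop1 deletion replicate 2 (adjusted p = 0.072), or control replicate 2 (0.079) or 3 (0.08).

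**Figure D3:**
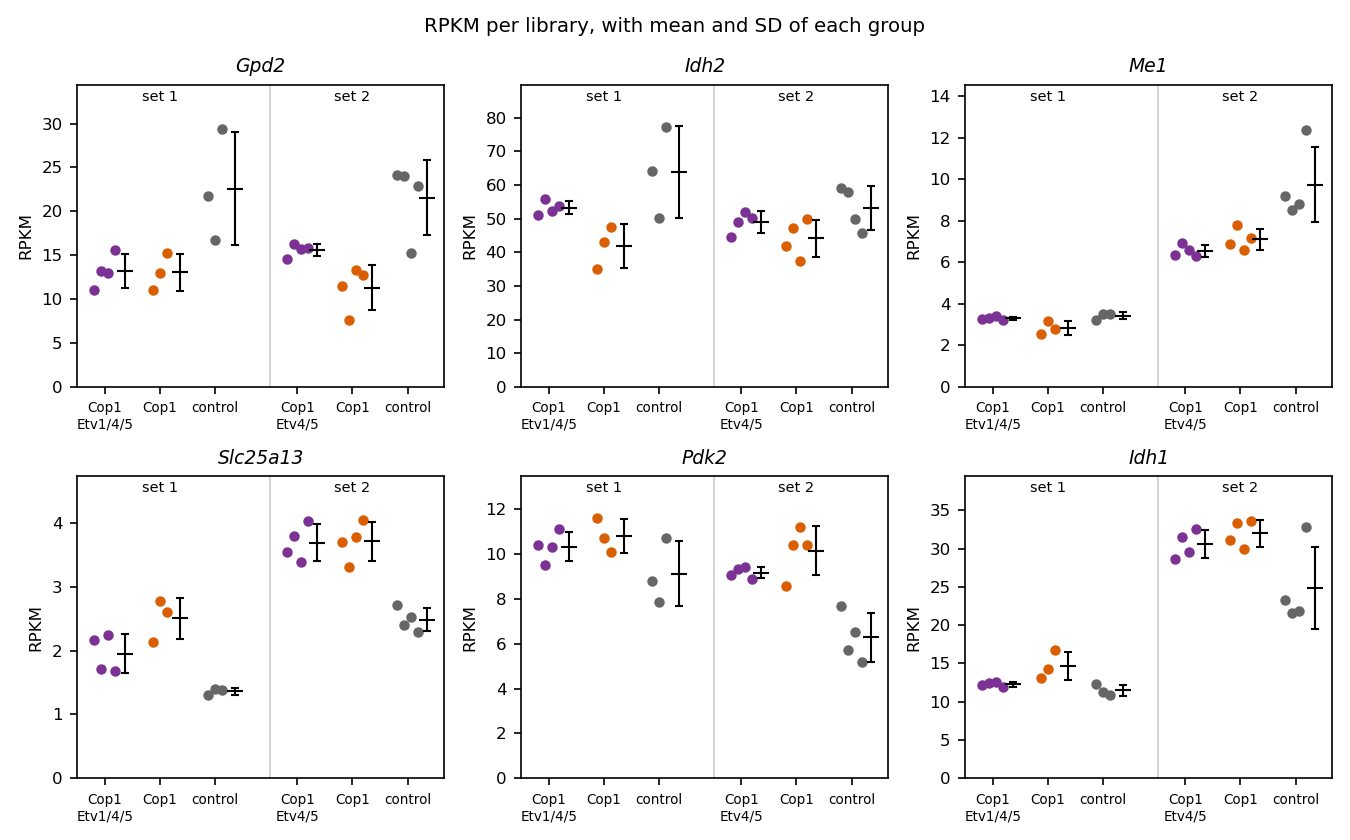
Levels in RPKM of Gpd2, Idh2, Me1, Slc25a13, Pdk2 and Idh1, 1 point per library, with the mean and SD of each group; in each set the groups run from the libraries labelled with Etv alleles over Cop1 deletion to control. Gpd2 and Me1 are lower and Slc25a13 is higher in all Cop1 deletion libraries than in the controls of their set.

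No gene of the 39 differed between the sets in its response to Cop1 deletion by limma (0 calls, against 2.83% of all genes tested), while 7 had an unadjusted p below 0.05 and 2 were called without control replicate 4 of set 2. The lowest adjusted p were those of Ogdh (difference in log2 fold change, set 1 minus set 2, 0.25, adjusted p = 0.092), Aco1 (0.30, adjusted p = 0.12) and Pdk3 (0.53, adjusted p = 0.13). A call in one set and not in the other, as for Pdk2, Idh2 or Me1, thus does not show that the sets differ. For these genes the difference was tested by limma and not called (adjusted p = 0.19, 0.39 and 0.54).

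Few of these genes differed between the libraries labelled with Etv alleles and those of Cop1 deletion alone. In set 1, Gpd1 and Glud1 were higher in the Etv1/4/5-labelled libraries, 2 of 39 genes (5.13%, against 6.34% of all genes tested, 3.65% up). Gpd1 averaged 17.5 RPKM in the Etv1/4/5-labelled and 13.9 RPKM in the Cop1 deletion libraries (0.32, SE 0.09, adjusted p = 0.046). Glud1 averaged 41.5 RPKM in the Etv1/4/5-labelled and 36.5 RPKM in the Cop1 deletion libraries (0.18, SE 0.05, adjusted p = 0.039), beside 42.9 RPKM in the control-labelled libraries. Neither pair of groups overlapped. Both calls sat near the threshold and were lost without any 1 Etv1/4/5-labelled library (adjusted p up to 0.12 for Gpd1 and 0.095 for Glud1). Without Cop1 deletion replicate 4 the adjusted p was 0.12 for Gpd1 and 0.22 for Glud1, and without Cop1 deletion replicate 2 it was 0.23 and 0.085. Without control replicate 4 of set 2, 5 genes were called (3 up, 2 down), and without control-labelled replicate 2 of set 1, 1 was. The share of genes with no overlap was 30.8% of the 39 and 30.7% of all genes tested. With equal total RPKM the 2 calls gave way to 4 others, all lower in the Etv1/4/5-labelled libraries, while the median of all genes moved by -0.13. β-cell markers were higher in the Etv1/4/5-labelled libraries for 5 of 10 genes, and Sst of δ cells was too (5530 against 2600 RPKM in Cop1 deletion, 1.07, adjusted p = 0.0023). Of the 2 δ-cell markers tested, 1 was positive and 1 negative, so Sst does not speak for both. Of 5 α-cell markers 3 had an unadjusted p below 0.05 and none was called by limma (0 calls). The part of these cells in the differences was not tested.

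In set 2 no gene of the 39 was called between the Etv4/5-labelled and the Cop1 deletion libraries by limma (0 calls, against 1.73% of all genes tested), with 9 at an unadjusted p below 0.05 and 3 called without control replicate 4. Gpd2 averaged 15.6 RPKM in the Etv4/5-labelled and 11.3 RPKM in the Cop1 deletion libraries, without overlap (0.48, adjusted p = 0.15). In set 1 it averaged 13.2 and 13.1 RPKM in the Etv1/4/5-labelled and Cop1 deletion libraries (0.01, adjusted p = 0.99). Pdha1 averaged 53.5 and 47 RPKM in the Etv4/5-labelled and Cop1 deletion libraries of set 2 (0.19, adjusted p = 0.066), and Ogdh 47.4 and 41.8 RPKM (0.18, adjusted p = 0.068). Slc25a13 differed little in set 2, at 3.69 and 3.71 RPKM (-0.01, adjusted p = 0.97), and in set 1 it averaged 1.95 RPKM in the Etv1/4/5-labelled and 2.5 RPKM in the Cop1 deletion libraries (-0.29, adjusted p = 0.092). Non-overlapping groups were seen for 12.8% of the 39 genes and 13.8% of all genes tested. With set 2 fitted on its own, 0 of all genes were called between the Etv4/5-labelled and Cop1 deletion libraries by limma. In the main fit acinar markers were lower in the Etv4/5-labelled libraries, with a median log2 fold change of -1.94 over 12 genes (1 called, 12 at an unadjusted p below 0.05). All 10 β-cell markers were positive (median 0.48, 2 called, 8 at an unadjusted p below 0.05). All 5 α-cell markers were positive too (median 0.39, 3 at an unadjusted p below 0.05), and 1, Ttr, was called. The part of these cell types was not tested.

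Against control, the Etv4/5-labelled libraries of set 2 differed in 6 genes. Of 39 genes, 3 rose and 3 fell (15.4%, against 8.74% of all genes tested, 4.99% up and 3.75% down), and 10 did not overlap between the groups (25.6%, against 21.6%). Pdk2 (0.53, adjusted p = 0.003), Slc25a13 (0.49, adjusted p = 0.002) and Gpd1 (0.33, adjusted p = 0.021) were higher, and Me1 (-0.53, adjusted p = 0.00092), Pdk3 (-0.49, adjusted p = 0.011) and Dld (-0.24, adjusted p = 0.025) were lower, each with no overlap. The Gpd1 call was lost without Etv4/5-labelled replicate 3 (adjusted p = 0.067), or control replicate 2 (0.067) or 3 (0.069). The Dld call was lost without Etv4/5-labelled replicate 1 (adjusted p = 0.061) or 3 (0.079), or control replicate 1 (0.062) or 2 (0.093). Cell type markers moved with this contrast as well: of 10 β-cell markers Mafa (-2.05) and Slc2a2 (-2.23) fell and Iapp (0.60) and Ucn3 (0.87) rose, Sst fell (-0.77), and Ttr (0.85) and Krt7 (1.05) rose. Krt7 was the only positive one of 5 tested duct markers, and the other 4 were negative (median log2 fold change -0.45). The part of these cell types was not tested. These comparisons share the controls with those of Cop1 deletion. The split was 2 up and 6 down with equal total RPKM, 2 up and 9 down when insulin genes were left out of it, and 3 up and 5 down with median-ratio or quantile scaling. The count was 11 (5 up, 6 down) without Cop1 deletion replicates 2 and 3, 9 (4 up, 5 down) without control replicate 4 and 4 (2 up, 2 down) with the Xist-positive libraries alone. In set 1, none of the 39 genes was called between the Etv1/4/5-labelled and the control-labelled libraries by limma (0 calls, against 1.32% of all genes tested), and 5 had an unadjusted p below 0.05. There 7 of 39 did not overlap (17.9%, against 14.1%). Among those 5 were Gpd2 (13.2 against 22.6 RPKM, -0.73, adjusted p = 0.085) and Slc25a13 (1.95 against 1.36 RPKM, 0.39, adjusted p = 0.067), each without overlap. Without control-labelled replicate 2, which carries Esr1 reads, Gpd2 was called (-0.92, adjusted p = 0.022).

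Shares within enzyme families show which isozyme led, as a description without a test. Among the pyruvate dehydrogenase kinases of set 2, Pdk2 held 21.5% ± 1.2 of the summed RPKM in Etv4/5-labelled, 22.4% ± 5.4 in Cop1 deletion and 14.9% ± 2.3 in control libraries, while Pdk3 held 25.1% ± 2, 25.8% ± 4.4 and 36.4% ± 5.9 (SD, n = 4 each). By mean share Pdk4 led in the Etv4/5-labelled libraries (31.2% ± 3.3) and Pdk3 in the controls. Pdk1 led in Cop1 deletion (32.6% ± 9.3), with 45.3% in replicate 3. In set 1, Pdk2 was the leading form in all groups, at 35.4%, 34.2% and 34%. Idh1 made up 18.8% ± 0.65 of the NADP-linked isocitrate dehydrogenase RPKM in Etv1/4/5-labelled, 26.1% ± 1.1 in Cop1 deletion and 15.7% ± 3.1 in control-labelled libraries of set 1 (SD, n = 4, 3 and 3), and 38.5% ± 1.5, 42.2% ± 1.8 and 31.9% ± 6.8 in the same order of groups in set 2. Slc25a13 made up 8.03%, 8.5% and 5.87% of the aspartate-glutamate carriers in the 3 groups of set 1 and 8.71%, 9.38% and 6.63% in those of set 2, so that Slc25a12 was the main form in every group. Me2 was the main malic enzyme in every group, at 54.8% to 66.6% on average.

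**Figure D4:**
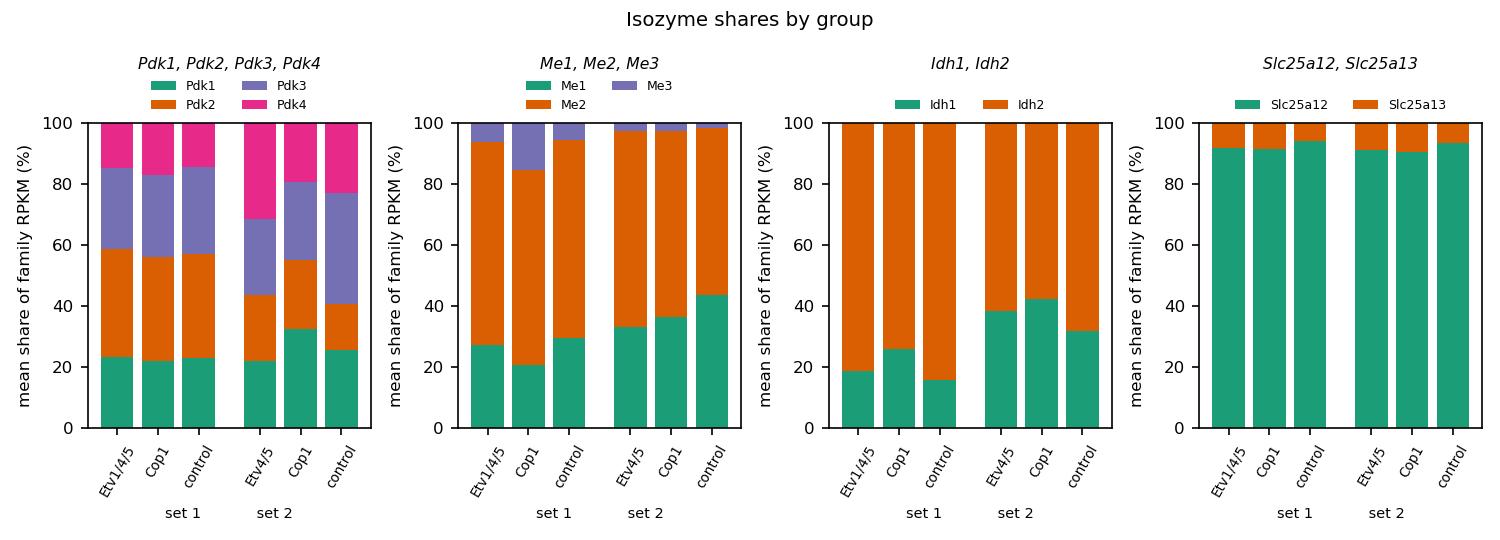
Mean share of each isozyme in the summed RPKM of its family (Pdk1 to Pdk4, the malic enzymes, Idh1 and Idh2, and the aspartate-glutamate carriers), stacked to 100% in each of the 6 groups. The Idh1 and Slc25a13 segments are larger in Cop1 deletion than in control in both sets.

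Me3, below the filter, was highest in the Cop1 deletion libraries of set 1. It was at 0.573, 0.717, 0.789 and 0.842 RPKM in the Etv1/4/5-labelled, 2.87, 2.08 and 1.57 RPKM in the Cop1 deletion and 0.402, 0.956 and 0.578 RPKM in the control-labelled libraries. The 3 Cop1 deletion libraries lay above all others of the set. On the log2(RPKM + 0.5) scale, Cop1 deletion exceeded control by 1.22 (exact permutation test, 2-sided, p = 0.1, the smallest p that 3 against 3 libraries allow), and the Etv1/4/5-labelled libraries were below Cop1 deletion by a difference of -1.1 (p = 0.0286, exact permutation test, the smallest that 4 against 3 allow). Fitted by limma without the filter, over 23637 genes, the adjusted p were 0.00047 and 0.00093. In set 2 the range was 0.415 to 0.721 RPKM in Etv4/5-labelled, 0.327 to 0.676 RPKM in Cop1 deletion and 0.247 to 0.488 RPKM in control libraries, and the Cop1 deletion effect differed between the sets in that fit (1.01, adjusted p = 0.048).

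Neighbouring genes of the pathway were taken from lists, and among them glutamine synthetase stood out by its fall. Of 6 tested genes of glutamate and alanine metabolism, 2 fell in the mean of both sets, where 20.1% of all genes tested were called. Of the 6, 3 were positive and 3 negative there. Glul, glutamine synthetase, was at 108, 113, 107 and 115 RPKM in the Etv1/4/5-labelled, 57.4, 62.9 and 61 RPKM in the Cop1 deletion and 153, 124 and 129 RPKM in the control-labelled libraries of set 1. In set 2 it was at 43.2, 50.1, 60.5 and 50.3 RPKM in the Etv4/5-labelled, 34.1, 49.3, 42.5 and 42.7 RPKM in the Cop1 deletion and 117, 118, 100 and 71.6 RPKM in the control libraries. Cop1 deletion lay below control throughout, at -1.20 in the mean (SE 0.1, adjusted p = 1.9e-07). The Etv1/4/5-labelled libraries were above Cop1 deletion (0.87, adjusted p = 0.00097). They lay below every control-labelled library of set 1, a difference that was not called. In set 2 the Etv4/5-labelled libraries were below control (-0.97, adjusted p = 0.00013). They overlapped the Cop1 deletion libraries and were not called against them. The mitochondrial glutamate carrier Slc25a22 fell in the mean (-0.23, adjusted p = 0.013), and the alanine aminotransferase Gpt2 fell in set 2 (9.19 RPKM in Cop1 deletion, 18.1 RPKM in control, -0.86, adjusted p = 0.0078), where control replicate 4, at 8.39 RPKM, overlapped.

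Further subunits and regulators of these complexes gave 2 falls among 9 tested genes, and the transcriptional regulators of mitochondrial genes gave 1 among 8, shares near or below that of all genes tested in the mean of both sets (20.1%). Ogdhl, a relative of Ogdh, was at 41, 45.8, 44.7 and 47.4 RPKM in the Etv4/5-labelled, 47.6, 33.6, 33 and 45.2 RPKM in the Cop1 deletion and 96.9, 82.4, 83.3 and 96.3 RPKM in the control libraries of set 2 (-1.18 for Cop1 deletion, adjusted p = 2.1e-05). In set 1 Cop1 deletion and control-labelled libraries overlapped, at 34.4 to 38.3 and 33.9 to 44.8 RPKM, and the effect differed between the sets (set 1 minus set 2, 1.06, adjusted p = 0.013). Pdp2, a phosphatase of pyruvate dehydrogenase, fell in the mean (-0.38, adjusted p = 0.013), and in set 2 it averaged 2.95 RPKM in the Etv4/5-labelled and 1.88 RPKM in the Cop1 deletion libraries (0.57, adjusted p = 0.036). With set 2 fitted on its own, 0 of all genes were called between these 2 groups by limma. Ppargc1a, a coactivator of mitochondrial gene transcription, was at 4.28, 3.71, 2.52 and 2.6 RPKM in the Etv1/4/5-labelled, 1.2, 0.961 and 1.21 RPKM in the Cop1 deletion and 4.2, 5.87 and 2.42 RPKM in the control-labelled libraries of set 1. Its fall after Cop1 deletion (-1.46, adjusted p = 0.00021) and its higher level in the Etv1/4/5-labelled libraries (1.20 over Cop1 deletion, adjusted p = 0.001) came without overlap. In set 2 Ppargc1a stayed below 1 RPKM in all 12 libraries, and the difference between the sets was called (-1.22, adjusted p = 0.026).

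**Figure D5:**
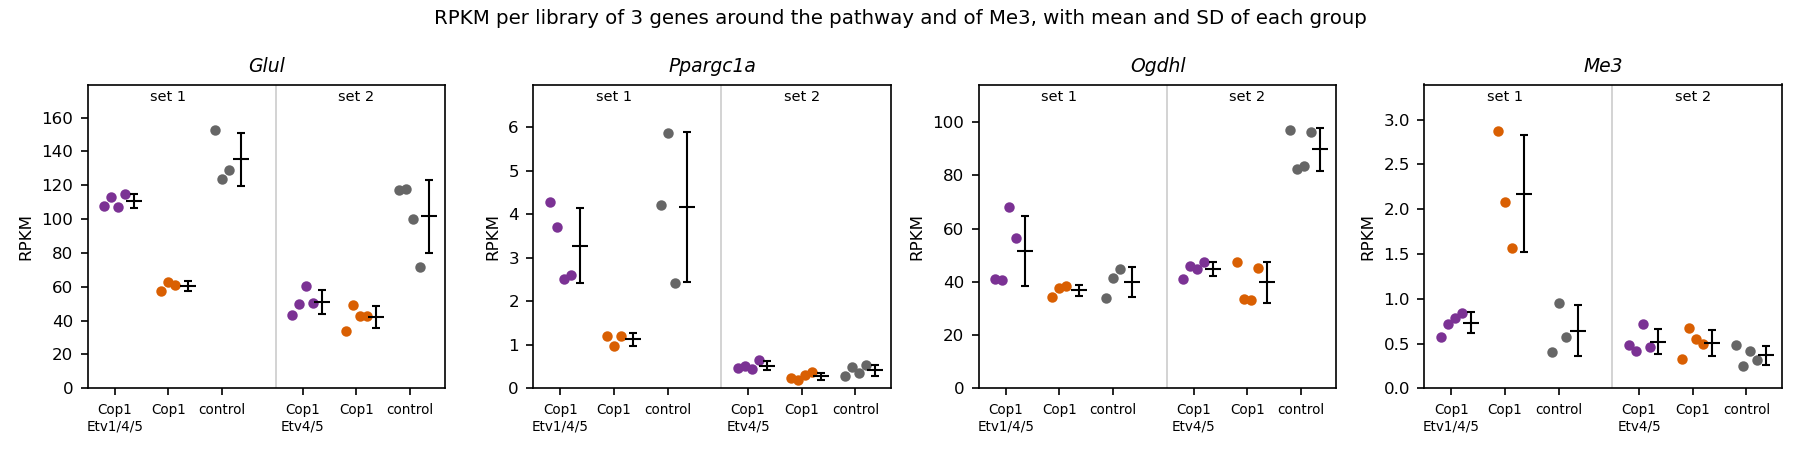
Levels in RPKM of Glul, Ppargc1a, Ogdhl and Me3, 1 point per library, with the mean and SD of each group; in each set the groups run from the libraries labelled with Etv alleles over Cop1 deletion to control. Glul is lower in Cop1 deletion than in control in both sets, Ppargc1a is lower and Me3 higher in Cop1 deletion than in both other groups of set 1, and Ogdhl is higher in the controls of set 2 than in both other groups.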

How the data were processed

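RNA-seq of mouse islets was deposited by the authors as RPKM (reads scaled to gene length and library size) for 28059 NCBI Gene numbers. Per the submitters' processing notes, reads were placed on mm9. Which aligner, counter, annotation or strand setting was used is not given in the sources used here. Of 24 library columns, 22 were placed by the sample number that begins a title. The other 2 were not used, 1 because its number begins 2 titles and 1 because it begins none. A symbol was found for 24998 rows through the RefSeq annotation. The number of reads is unknown, so no counting interval is given, and the relative depth was read from the steps between low values.

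Values were set to log2(RPKM + 0.5), and genes at 1 RPKM or more in at least 4 libraries were kept (14342). This scale understates changes of low genes. All 6 groups entered 1 fit (limma 3.58.1 with trend and robust settings, R 4.3.3), with 8 contrasts, 2-sided tests and Benjamini-Hochberg adjustment over all genes tested. A gene was called at an adjusted p below 0.05. The code was tested on simulated data. Me3, below the filter, was compared by exact permutation tests. The 40 genes, the lists of neighbouring genes and the cell type markers were chosen with earlier results of these data known. Values per library are given for genes called in the mean of both sets or between Etv-labelled and Cop1 deletion libraries, and others by group means. The design text gives 5 biological replicates per genotype. The labels do not tie libraries to separate mice, so p-values measure the spread between these samples. The alternatives were other pseudocounts, filters and scalings, quantile normalization, library weights, each set on its own, and libraries left out. Promoter windows came from RefSeq (GRCm38.p6), matched by symbol or gene number, and no coordinates were converted between builds.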

Additional observations from a re-analysis of the deposited data

Results flagged for a closer look

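Of the 160 groups of 4 libraries among the 40 genes, 14 held a library far from the other 3 of its group by Dixon's test, where chance gives about 1 in 20. Control replicate 4 of set 2, which also has the lowest total RPKM (524289), was such a library for 6 genes. It had 50.1 RPKM of Pdha1 (others 54.5 to 54.9), 19.8 RPKM of Pdhb (15.8 to 16.4) and 49.6 RPKM of Cs (45 to 45.5). It also had 32.8 RPKM of Idh1 (21.6 to 23.3), 31.7 RPKM of Sucla2 (35.6 to 36) and 4.68 RPKM of Slc25a10 (2.73 to 2.98). For Pdha1, Pdhb, Idh1 and Sucla2 these values lie within the range of the Cop1 deletion libraries of that set.

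Control replicate 3 of set 2 had 15.2 RPKM of Gpd2, against 22.9 to 24.1 RPKM in the other controls. Cop1 deletion replicate 3 of set 2, with a high immune marker sum, had 15.1 RPKM of Pdk3 (others 10.6 to 11.1), and replicate 2, also with a high sum, had 179 RPKM of Mdh2 (143 to 148). In Etv4/5-labelled replicate 4, Idh3a was at 31.7 RPKM (29.8 to 30) and Dlst at 39.4 RPKM (37.7 to 37.9). In Etv1/4/5-labelled replicate 3, Suclg1 was at 51.4 RPKM (49.5 to 49.8) and Suclg2 at 11.8 RPKM (9.88 to 10.2). Glud1 was at 42.3 RPKM in Etv1/4/5-labelled replicate 2 (41.2 to 41.3).

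The effect of Cop1 deletion differed between the sets for 3 genes outside the 40 (interaction contrast in limma, set 1 minus set 2). The log2 difference was 1.06 for Ogdhl (adjusted p = 0.013), -1.22 for Ppargc1a (adjusted p = 0.026) and -1.05 for the duct marker Krt7 (adjusted p = 0.0047). Ppargc1a stayed below 1 RPKM in all libraries of set 2, where the scale used understates changes.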

How the results depend on the processing

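Of the 44 calls made on the 39 genes over 8 comparisons, 16 held under every alternative run other than the 1.5-fold minimum, 28 were lost under at least 1, and 0 reversed. The calls that held were those of Dld, Pdk2, Idh1, Idh2, Fh1, Me1, Gpd2 and Slc25a13 in the mean of both sets, Slc25a13 in set 1, Pdk2, Me1, Gpd2 and Slc25a13 in set 2, and Pdk2, Me1 and Slc25a13 between Etv4/5-labelled and control libraries. In the order mean of both sets, set 1, set 2, difference between sets, Etv1/4/5 against Cop1 deletion, Etv4/5 against Cop1 deletion, Etv1/4/5 against control and Etv4/5 against control, 14, 5, 17, 0, 2, 0, 0 and 6 of the 39 genes were called. In all of these comparisons other than set 2, library weights gave 29, 19, 17, 12, 8, 8 and 19. A minimum of 1.5-fold left 2, 3, 2, 0 and 0 in the mean, set 1, set 2, Etv1/4/5 against Cop1 deletion and Etv4/5 against control. Fitting each set on its own gave 8 in set 1, 8 in set 2 and 3 for Etv4/5 against control. Without Cop1 deletion replicates 2 and 3 of set 2, the counts were 9 in set 2, 3 for Etv1/4/5 against control and 11 for Etv4/5 against control, and the Xist-positive libraries gave 6 in set 2. Equal total RPKM gave 5 for the difference and 4 (0 up, 4 down) for Etv1/4/5 against Cop1 deletion. The same without insulin genes gave 3 in set 1, 1 for the difference, 0 for Etv1/4/5 against Cop1 deletion and 11 for Etv4/5 against control. Quantile normalization gave 2 for the difference, 0 for Etv1/4/5 against Cop1 deletion and 2 for Etv4/5 against Cop1 deletion. Median-ratio scaling gave 1 for Etv1/4/5 against Cop1 deletion and 1 for Etv1/4/5 against control, a pseudocount of 0.1 gave 1 there, and no filter gave 1 for the difference, Me3. Leaving out each of the 22 libraries in turn gave 13 to 18, 2 to 8, 10 to 18, 0 to 2, 0 to 5, 0 to 3, 0 to 3 and 4 to 9. The cause of these shifts was not tested.

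Over all genes, 2877, 1195, 2702, 406, 909, 248, 189 and 1253 were called in the same order. Library weights gave 6259, 5429, 5035, 3872, 3712, 3217, 3022 and 4766, and a minimum of 1.5-fold 538, 515, 774, 366, 107, 114 and 411, leaving aside the difference. Each set on its own gave 2104 in set 1, 1448 in set 2, 1715 and 0 for Etv against Cop1 deletion in sets 1 and 2, and 654 for Etv4/5 against control. Without Cop1 deletion replicates 2 and 3 of set 2, the counts were 2061, 1585, 1691, 44, 330 and 2231, leaving aside the mean and the difference. The Xist-positive libraries gave 1321 in set 2, 267 for the difference, 1421 and 7 for Etv against Cop1 deletion in sets 1 and 2. Equal total RPKM gave 1628 for Etv1/4/5 against Cop1 deletion, and without insulin genes 4681 in set 2. Leaving out 1 library gave 2272 to 3393, 718 to 1890, 1933 to 3411, 218 to 843, 542 to 1516, 15 to 767, 91 to 358 and 801 to 1997. Equal total RPKM moved the median of all genes by 0.12 in set 1, 0.19 in the difference and -0.13 for Etv1/4/5 against Cop1 deletion, and without insulin genes by -0.15 in set 2, 0.14 in the difference and -0.11 for Etv4/5 against control.

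No paired analysis was possible because the replicate numbers follow accession order and pair no samples. The number of reads is unknown, and genes near 1 RPKM, such as Mpc1 and Slc25a13, rest on fewer reads than the others.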

Other observations

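Of 5 tested genes of citrate use, 2 fell in set 2, where 18.8% of all genes tested were called. Fasn, the fatty acid synthase, averaged 12 RPKM in Cop1 deletion and 19.4 RPKM in control libraries (-0.63, adjusted p = 0.011), and Acaca, which makes malonyl-CoA, averaged 0.735 and 1.19 RPKM (-0.47, adjusted p = 0.0078). In the mean of both sets 1 of the 5 fell. Among 4 genes of lactate metabolism none was called in that mean by limma (0 calls, 1 at an unadjusted p below 0.05). Slc16a3, a lactate exporter that most β cells keep very low, averaged 3.83 RPKM in the Etv4/5-labelled, 11.7 RPKM in the Cop1 deletion and 8.3 RPKM in the control libraries of set 2. It was lower in the Etv4/5-labelled libraries than in Cop1 deletion (-1.34, adjusted p = 0.032) and than in control (-1.01, adjusted p = 0.046). With set 2 fitted on its own, 0 of all genes were called between the Etv4/5-labelled and Cop1 deletion libraries by limma.

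Mecr, an enzyme of mitochondrial fatty acid synthesis that feeds the making of lipoate for Dlat and Dlst, fell in the mean of both sets (-0.39, adjusted p = 0.00091), the only call among 4 genes of that list. In set 2 it averaged 8.53 RPKM in Cop1 deletion and 12 RPKM in control libraries. Of 7 genes of mitochondrial calcium uptake, Mcu, the uniporter pore, rose in the mean (0.35, adjusted p = 0.036). Of 8 genes that hypoxia induces, 2 fell in the mean, Vegfa (-0.36, adjusted p = 0.0016) and Ndrg1 (-0.34, adjusted p = 3e-04). The others of that list were not called, and 5 of the 8 were positive (median log2 fold change 0.06). The counts of these lists stand beside the 20.1% of all genes tested that were called in the mean. In set 1, Ndrg1 averaged 89.7 RPKM in the Etv1/4/5-labelled, 66.3 RPKM in the Cop1 deletion and 91 RPKM in the control-labelled libraries.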
